A study of Mus musculus with 9 samples.

Results

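Wnt ligands, their Frizzled and LRP receptors, the secreted inhibitors of the Sfrp and Dkk families, beta-catenin with the Axin scaffolds, and the TCF/LEF transcription factors were followed in mouse primary myoblasts. The genes were chosen by symbol (Wnt, Fzd, Sfrp or Dkk followed by a number, plus Lef1, Tcf7, Tcf7l1, Tcf7l2, Axin1, Axin2, Ctnnb1, Lrp5 and Lrp6), a rule that uses no measured value, although the set was proposed with earlier results of these data known. The array table named 45 of them among 24011 genes: 19 Wnt ligands, 12 receptors, 8 secreted inhibitors, 3 genes of the beta-catenin and Axin group and 3 TCF/LEF factors. Tcf7 had no named probe set here and was not analysed. The cells were the cultured progeny of satellite cells, the stem cells of skeletal muscle, grown with 20% fetal bovine serum and basic FGF and then moved to 2% horse serum, and RNA was taken after 24 h. Each of 3 groups had 3 arrays: mock-treated controls, cells given BMP4 protein at 100 ng/ml and cells given GREM1 protein at 500 ng/ml. All groups shared the low-serum medium, no group received both proteins, and the labels give neither the strain nor the age of the mice. Whether replicates came from separate cultures is not in the labels. The p-values therefore measure only the spread between these arrays, which may be technical.

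Wnt proteins are secreted, lipid-modified signals that bind Frizzled receptors together with the co-receptor LRP5 or LRP6. In the canonical branch this stops Axin and its partners from marking beta-catenin for destruction, and beta-catenin then enters the nucleus and activates genes with TCF/LEF factors. Other branches act through Frizzled receptors on cell shape, polarity and calcium without beta-catenin. Secreted Frizzled-related proteins (Sfrp) resemble the ligand-binding part of Frizzled and can bind Wnt proteins, and Dickkopf proteins (Dkk) bind LRP5 and LRP6. BMP4 signals through BMP receptors and SMAD factors, while secreted GREM1 captures BMP ligands before they reach a receptor. In muscle, Wnt signals are known to act on satellite cells and on the differentiation of their progeny.

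Of the members that passed a test below, Sfrp2 and Lef1 had start sites in the RefSeq promoter table (build GRCm38.p6), and they are shown because they were the inhibitor and the transcription factor that moved in opposite directions. Each sequence is the 250 bases before an annotated start site on the plus strand of chromosome 3, written 5′ to 3′, with matches to 3 searched motifs in capitals. The motifs were CTTTGA, the core that TCF/LEF factors bind, GGCGCC, a GC-rich element bound by SMAD factors, and CAGCTG, an E-box bound by myogenic factors, each searched on both strands. The first Lef1 window is chr3:131110047-131110296, the second is the most distant start site of that gene, chr3:131156044-131156293, and the Sfrp2 window is chr3:83766071-83766320.
Lef1, upstream start site: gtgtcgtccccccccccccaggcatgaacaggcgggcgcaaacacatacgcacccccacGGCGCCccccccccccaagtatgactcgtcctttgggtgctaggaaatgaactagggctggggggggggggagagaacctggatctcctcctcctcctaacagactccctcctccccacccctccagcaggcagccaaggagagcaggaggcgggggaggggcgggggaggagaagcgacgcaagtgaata
Lef1, most distant start site: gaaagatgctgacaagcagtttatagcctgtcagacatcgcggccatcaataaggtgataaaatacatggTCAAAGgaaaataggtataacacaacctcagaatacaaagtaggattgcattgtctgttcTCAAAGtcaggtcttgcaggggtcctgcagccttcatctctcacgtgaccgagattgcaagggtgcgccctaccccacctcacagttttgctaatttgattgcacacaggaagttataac
Sfrp2: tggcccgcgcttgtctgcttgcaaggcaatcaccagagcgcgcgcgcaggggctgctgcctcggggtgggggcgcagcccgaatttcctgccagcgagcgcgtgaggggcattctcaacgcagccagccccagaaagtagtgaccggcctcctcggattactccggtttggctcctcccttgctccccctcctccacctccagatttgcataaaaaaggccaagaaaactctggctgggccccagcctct
The capitals in the upstream Lef1 window are GGCGCC, 191 bases before the start site, and those in the distant window are TCAAAG, the reverse complement of CTTTGA, 180 and 120 bases before it. Lef1 has 4 annotated start sites in the table, and the windows of the other two are not printed: the second holds GGCGCC 217 bases before its start site, and the third holds CAGCTG 205 bases before its own. The Sfrp2 window held 0 of the 3 motifs, which says only that these letters are not in this window. Over all 32851 windows of the table, CTTTGA was in 13.8%, GGCGCC in 9.59% and CAGCTG in 13.0%. Start sites were matched for 30 of the 45 members (38 windows), of which 5 windows held CTTTGA, 13 held GGCGCC and 3 held CAGCTG. Windows of a gene can overlap, and the shared GGCGCC site of Lef1 counts in both of its windows. The median GC content was 68.6% in the members' windows and 52.4% in all windows. A match describes the sequence and is not evidence of binding.

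Values are log2 expression by robust multi-array average (RMA), in which a difference of 1 is a 2-fold change. A gene was tested if it exceeded, on at least 3 of the 9 arrays, the 30th percentile of named probe sets on that array, a level of 3.89 to 4.02. This left 41 members among 17142 tested genes. Differences are given with their standard error (SE) from limma, and a gene is said to have risen, fallen or changed, or to be higher or lower than another group, only at a Benjamini-Hochberg adjusted p under 0.05 over all tested genes. The members left out were Wnt1, Wnt3, Wnt8b and Sfrp5, whose values ran from 3.13 to 4.04 over all arrays. Array medians lay between 5.00 and 5.12, and 13 of the 41 tested members (31.7%), against 43.2% of all tested genes, had the identical value on at least 2 arrays, so a small standard deviation (SD) can come from ties. All 12 myogenic markers were tested. Their mean level ran from 9.59 to 9.94 in the controls, 9.78 to 9.96 with BMP4 and 10.04 to 10.23 with GREM1, above all controls. With GREM1 3 of the 12 were higher than in the controls, as were 2.07% of all tested genes. In that comparison 10 of the 12 lay above 0 and 2 below, the lowest at -0.85. Of all 17142 tested genes 8336 lay above 0. Without adjustment, p in limma was under 0.05 for 6 above and 1 below the controls, with 20.0% of all tested genes at that level. Of 11 measured markers of fibroblasts and fibro-adipogenic progenitors 7 were tested, having exceeded the filter level on at least 3 arrays. Pdgfra, Dcn, Lum and Dpt were not, with means of 3.58, 2.86, 3.23 and 3.31 in the controls. These low values do not stand for the whole list. The mean level of that list was 4.66 to 4.72 in the controls, 4.61 to 4.71 with BMP4 and 4.60 to 4.65 with GREM1. Of 8 measured leukocyte markers 4 were tested. The mean level of the 8 was 4.26 to 4.34 in the controls, 4.20 to 4.38 with BMP4 and 4.24 to 4.35 with GREM1. Ptprc among them lay between 2.90 and 3.17 on every array, which does not stand for the whole list. Of 8 Schwann cell markers 5 were measured and 4 tested. The 5 had a mean level of 4.74 to 5.10 in the controls, 4.77 to 5.10 with BMP4 and 5.17 to 5.28 with GREM1, above all controls. S100b among them lay between 3.49 and 3.65, below that mean, and does not stand for the whole list. The 4 tested differed by -0.0058 to 1.18 with GREM1 against control, and 1 lay above the controls at an unadjusted p under 0.05 in limma. Of the other lists 4 Schwann, 5 tendon, 7 pericyte, 5 endothelial, 4 leukocyte and 7 fibroblast markers were tested. With GREM1 against control 0 of these markers passed in limma, where 4.28% of all tested genes did. Without adjustment, p was under 0.05 for 3 above and 3 below the controls, with 20.0% of all tested genes at that level. Between BMP4 and GREM1, 4 of these markers passed, where 6.45% of all tested genes did. In the pericyte and smooth muscle list Cspg4 and Mcam were higher with BMP4 (0.56 and 1.06) and Abcc9 lower (-0.91), and in the tendon list Scx was lower (-0.95). The mean level of the pericyte list was 5.34 to 5.39 in the controls, 5.45 to 5.59 with BMP4, above all controls, and 5.31 to 5.43 with GREM1. With BMP4 against control 0 of its 7 tested markers passed in limma, where 0.117% of all tested genes did. Without adjustment, p was under 0.05 for 3 above and 1 below the controls, with 8.02% of all tested genes at that level. The part of the marker levels in the results below was not tested. In such bulk samples fewer cells of a type and less RNA per cell cannot be told apart.

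With GREM1, Sfrp2, Fzd6 and Wnt5a fell and Lef1 rose relative to the controls. The BMP4 and GREM1 groups differed in the same 4 genes and in Wnt7b, so that 5 of the 41 tested members passed in at least 1 comparison. Sfrp2, Fzd6 and Wnt5a were higher with BMP4 than with GREM1, and Lef1 and Wnt7b were lower. Against the controls 0 of 41 members passed with BMP4 in limma, where 0.117% of all tested genes passed (0.0933% higher and 0.0233% lower). With GREM1 1 member rose and 3 fell, against 4.28% of all tested genes (2.07% higher and 2.21% lower). BMP4 and GREM1 differed in 5 members, 3 higher with BMP4 and 2 lower, against 6.45% of all tested genes (3.62% higher and 2.83% lower).

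Without adjustment, p was under 0.05 for 10 members in BMP4 against control (5 above and 5 below the controls, with 8.02% of all tested genes at that level), 8 for GREM1 against control (20.0% of all) and 13 for BMP4 against GREM1 (19.4% of all). The arrays of the groups did not overlap for 11, 10 and 14 members in these comparisons, against 11.2%, 24.0% and 24.5% of all tested genes. The median difference of the 41 members was 0.037 for BMP4 against control, 0.061 for GREM1 against control and -0.047 for BMP4 against GREM1, where the medians of all tested genes were -0.0060, -0.0057 and -2.3e-05. Whether these shares differ from those of all genes was not tested. The comparisons with control share the same 3 control arrays, and the comparison of BMP4 with GREM1 uses none of them except for the estimate of the spread.

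**Figure D1:**
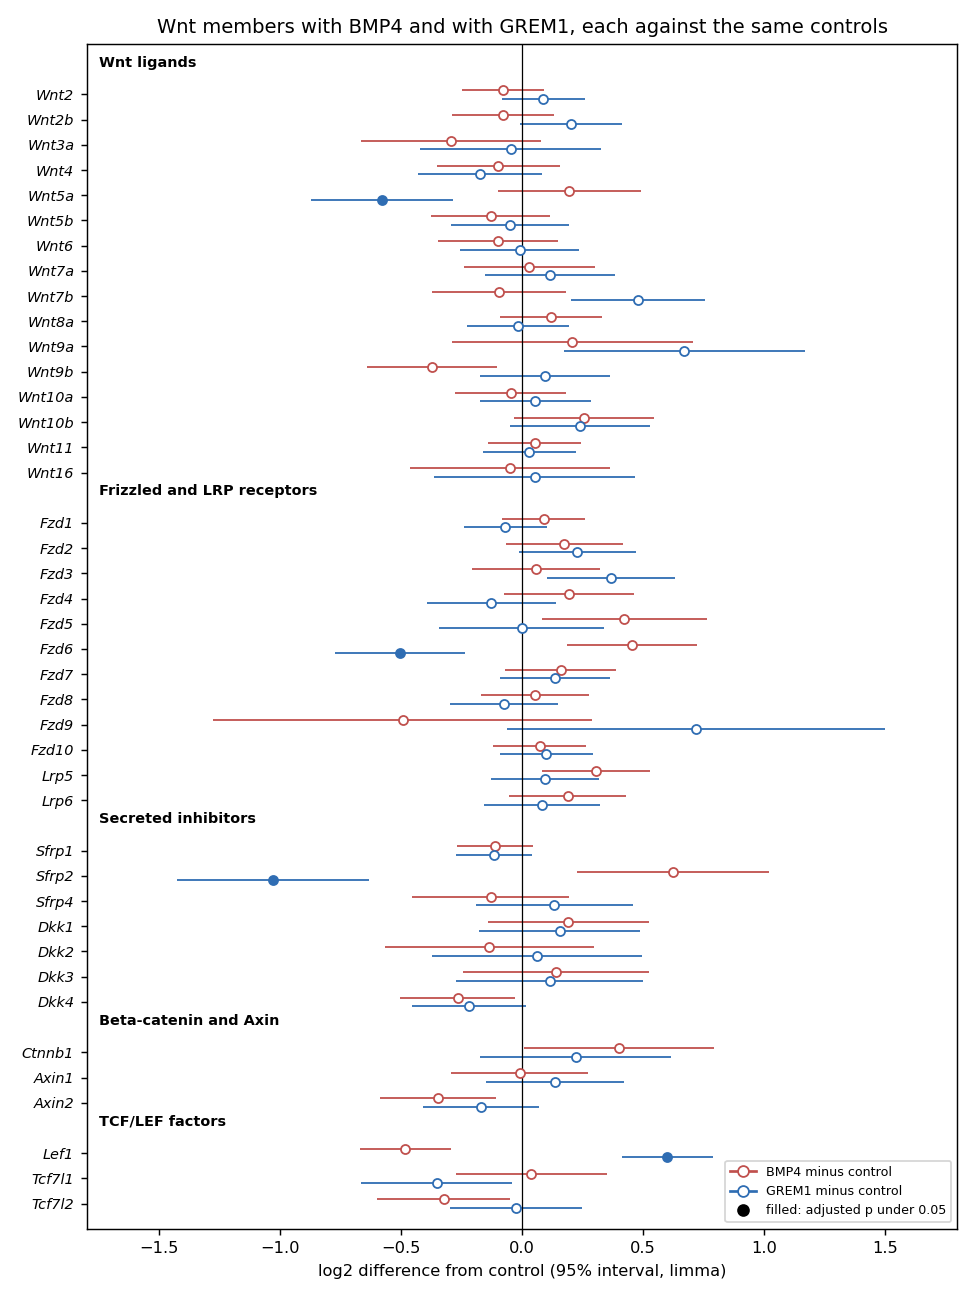
Log2 difference from control of the 41 tested members (vertical axis, grouped by role) with BMP4 (red) and with GREM1 (blue), with 95% intervals from limma; filled points have an adjusted p under 0.05. The filled points are Wnt5a, Fzd6 and Sfrp2 to the left of 0 and Lef1 to the right, all for GREM1, and no BMP4 point is filled.

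Among the ligands, Wnt5a, which acts mostly through branches that do not need beta-catenin, was at 4.36, 4.33 and 4.41 in control replicates 1 to 3, at 4.56, 4.62 and 4.51 with BMP4 and at 3.61, 3.62 and 4.12 with GREM1. Every BMP4 array lay above the controls and every GREM1 array below them, with GREM1 replicate 3 the nearest. GREM1 replicates 1 and 2 lay below the filter level of their arrays (3.94 and 3.95), so the sizes of the differences from GREM1 are uncertain. Wnt5a fell by 0.58 ± 0.13 with GREM1 (1.5-fold, adjusted p = 0.0416) and was 0.78 ± 0.13 higher with BMP4 than with GREM1 (adjusted p = 0.00814). Its difference between BMP4 and control was 0.20 ± 0.13 (adjusted p = 0.736). The fall was near the threshold. It was lost when control replicate 1, 2 or 3 was left out (adjusted p = 0.0987, 0.0727 and 0.117), BMP4 replicate 1 or 2 (0.0633 and 0.0700), or GREM1 replicate 1 or 2 (0.140 and 0.147). It was also lost when arrays were centred on their medians (adjusted p = 0.0638) or normalized by quantiles once more (0.0539), when only the groups compared were fitted (0.0922) and with no filter (0.0537), while the difference between BMP4 and GREM1 held in each of these settings.

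Wnt7b, a ligand that can signal through beta-catenin, was at 5.28, 5.00 and 5.28 in the controls, at 5.28, 5.11 and 4.88 with BMP4 and at 5.54, 5.72 and 5.73 with GREM1. The GREM1 arrays lay above all others, and the BMP4 and control arrays overlapped. The difference between BMP4 and GREM1 was -0.57 ± 0.12 (adjusted p = 0.0248). That call was lost without BMP4 replicate 2 or 3 (adjusted p = 0.0706 and 0.0806) and without GREM1 replicate 1, 2 or 3 (0.0513, 0.0944 and 0.0711). For GREM1 against control the difference of 0.48 ± 0.12 missed the threshold (adjusted p = 0.0616) and passed with the replicate number as a block (adjusted p = 0.0453). With arrays centred on their medians it also passed (adjusted p = 0.0489), as it did after a further quantile normalization (0.0346).

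Wnt9a was at 5.86, 6.0 and 5.47 in the controls, at 6.34, 6.0 and 5.61 with BMP4 and at 6.60, 6.68 and 6.07 with GREM1. In every group replicate 3 was the lowest array, and each GREM1 array exceeded all controls. The difference between GREM1 and control was 0.67 ± 0.22 (1.59-fold) and missed the threshold (adjusted p = 0.126); blocking on the replicate number gave adjusted p = 0.00542. Wnt9b, a ligand of the same subfamily, was at 5.08, 5.08 and 5.36 in the controls, 4.68, 4.80 and 4.92 with BMP4 and 5.08, 5.30 and 5.42 with GREM1. All BMP4 arrays lay below all others. The difference was -0.37 ± 0.12 between BMP4 and control (adjusted p = 0.483) and -0.47 ± 0.12 between BMP4 and GREM1 (adjusted p = 0.0502).

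Wnt2b had 5.15, 5.19 and 5.13 in the controls, 5.10, 5.00 and 5.13 with BMP4 and 5.17, 5.49 and 5.41 with GREM1, a difference of -0.28 ± 0.094 between BMP4 and GREM1 (adjusted p = 0.125). Its BMP4 arrays did not overlap those of either other group, by narrow margins. The other 11 tested ligands, Wnt2, Wnt3a, Wnt4, Wnt5b, Wnt6, Wnt7a, Wnt8a, Wnt10a, Wnt10b, Wnt11 and Wnt16, differed from the controls by -0.29 to 0.26 with BMP4 and by -0.17 to 0.24 with GREM1. Between BMP4 and GREM1 they differed by -0.25 to 0.13, and in limma 0 of them passed in any comparison, with 0 at an unadjusted p under 0.05. Wnt2, Wnt5a, Wnt10b and Wnt16 had some arrays below the filter level. Of the classical canonical ligands, Wnt3a ran from 3.98 to 4.73 over the arrays and the untested Wnt1 from 3.27 to 3.60.

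**Figure D2:**
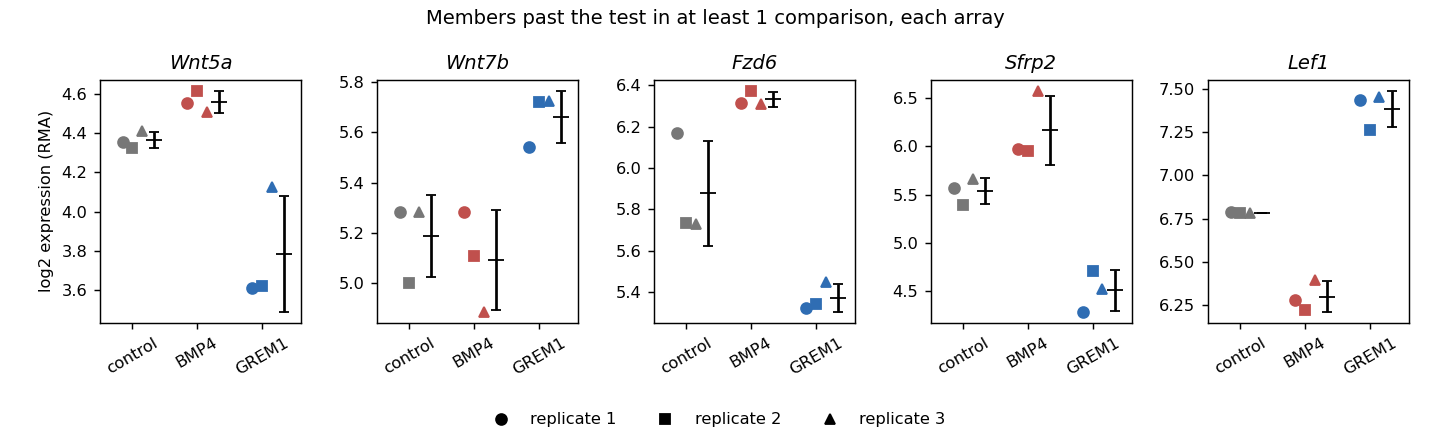
Log2 expression on each array (vertical axis, own scale per panel) of the 5 members that passed in at least 1 comparison, by group, with the replicate number as symbol and the mean and SD of 3 arrays as bars. Sfrp2, Fzd6 and Wnt5a descend from BMP4 to control to GREM1, Lef1 ascends, and Wnt7b stands apart in the GREM1 group.

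Among the receptors, Fzd6, a Frizzled known for its part in planar cell polarity, was at 6.17, 5.73 and 5.73 in the controls, at 6.31, 6.37 and 6.31 with BMP4 and at 5.32, 5.34 and 5.45 with GREM1. The 3 groups did not overlap, although control replicate 1 lay close to the BMP4 arrays. Fzd6 was 0.96 ± 0.12 higher with BMP4 than with GREM1 (1.95-fold, adjusted p = 0.00142). It fell by 0.50 ± 0.12 with GREM1 (adjusted p = 0.0481) and its difference between BMP4 and control was 0.45 ± 0.12 (adjusted p = 0.345). The fall with GREM1 was lost without control replicates 1 and 3 (adjusted p = 0.0606 and 0.0676), BMP4 replicates 1 to 3 (0.0704, 0.0785 and 0.0560) and GREM1 replicates 1 to 3 (0.148, 0.149 and 0.0766), and it was 0.36 without control replicate 1. A further quantile normalization gave adjusted p = 0.0508, a fit of only the groups compared 0.103 and no filter 0.0614.

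Fzd9, the receptor with the widest range over the 9 arrays, had 6.91, 6.21 and 5.61 in the controls, 5.82, 5.81 and 5.61 with BMP4 and 7.19, 7.44 and 6.25 with GREM1. The GREM1 arrays all exceeded the BMP4 arrays, and the controls overlapped both groups. Its difference of -1.21 ± 0.35 between BMP4 and GREM1 did not pass (adjusted p = 0.0775). It passed without control replicate 1 (adjusted p = 0.0457), control replicate 3 (0.0452) or GREM1 replicate 3 (0.0276, with a difference of -1.57).

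Fzd5 was at 5.70, 5.77 and 5.36 in the controls, 6.22, 6.18 and 5.70 with BMP4 and 5.60, 5.65 and 5.57 with GREM1, and differed by 0.43 ± 0.15 between BMP4 and GREM1 (adjusted p = 0.152, or 0.0367 without BMP4 replicate 3, its lowest BMP4 array). Fzd3 was at 7.17, 7.47 and 7.54 in the controls, 7.5, 7.31 and 7.54 with BMP4 and 7.77, 7.64 and 7.87 with GREM1. Its GREM1 arrays lay above all others, by 0.37 ± 0.12 on average over the controls (adjusted p = 0.115). The co-receptor Lrp5 was at 7.24, 7.5 and 7.41 in the controls, 7.68, 7.57 and 7.82 with BMP4 and 7.52, 7.52 and 7.39 with GREM1, with BMP4 arrays above all others and a difference of 0.31 ± 0.099 from control (adjusted p = 0.490). The other co-receptor, Lrp6, and Fzd1, Fzd2, Fzd4, Fzd7, Fzd8 and Fzd10 made up the remaining 7 receptors. They differed from the controls by 0.054 to 0.19 with BMP4 and by -0.13 to 0.23 with GREM1, and 0 of them passed in limma, with Fzd4 alone at an unadjusted p under 0.05, between BMP4 and GREM1. Of all 12 receptors, 11 had a value above 0 with BMP4 against control, with a median of 0.17, but 0 passed and 3 were at an unadjusted p under 0.05. Of all 17142 tested genes 8266 had a value above 0 in that comparison, and 8.02% had an unadjusted p at that level.

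Among the secreted inhibitors, Sfrp2, which is known from satellite cells and other mesenchymal cells, was at 5.57, 5.39 and 5.66 in the controls, at 5.97, 5.95 and 6.57 with BMP4 and at 4.29, 4.71 and 4.53 with GREM1. No group overlapped another. Its mean was 5.54 ± 0.14 (SD, n = 3) in the controls, 6.16 ± 0.36 with BMP4 and 4.51 ± 0.21 with GREM1. Sfrp2 fell by 1.03 ± 0.18 with GREM1 (2.04-fold, adjusted p = 0.0152) and was 1.65 ± 0.18 higher with BMP4 than with GREM1 (3.14-fold, adjusted p = 5.94e-04). Between BMP4 and control the difference was 0.62 ± 0.18 (95% interval 0.23 to 1.02) and did not pass (adjusted p = 0.406). The fall against control was lost without control replicate 1 or 3 or GREM1 replicate 1 (adjusted p = 0.0538, 0.0590 and 0.0637), at differences of -1.02, -0.97 and -0.92.

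Dkk4 was at 4.68, 4.40 and 4.41 in the controls, 4.32, 4.12 and 4.26 with BMP4 and 4.24, 4.19 and 4.40 with GREM1, with BMP4 arrays below all controls and a difference of -0.27 ± 0.11 (adjusted p = 0.581). Sfrp1 was at 4.96, 4.98 and 4.98 in the controls, 4.91, 4.84 and 4.84 with BMP4 and 4.81, 4.88 and 4.89 with GREM1, so both treated groups lay below the controls by about the same amount (-0.11 ± 0.069 and -0.12 ± 0.069, adjusted p = 0.717 and 0.388). Dkk1, an inhibitor that canonical Wnt signalling itself induces in many cells, was at 4.64, 4.66 and 4.29 in the controls, 5.02, 4.64 and 4.49 with BMP4 and 4.62, 4.79 and 4.64 with GREM1, and its groups overlapped. For Sfrp4 the arrays were at 4.43, 4.35 and 4.17 in the controls, 4.43, 4.14 and 3.99 with BMP4 and 4.71, 4.36 and 4.29 with GREM1, and all groups overlapped too. Dkk2 and Dkk3 differed from the controls by -0.14 and 0.14 with BMP4 and by 0.061 and 0.11 with GREM1. Sfrp5, which was not tested, was at 3.57, 3.50 and 3.51 in the controls, 3.84, 4.04 and 3.54 with BMP4 and 3.73, 3.81 and 3.63 with GREM1. Sfrp2 was the 1 secreted inhibitor of 7 tested that passed.

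Beta-catenin, Ctnnb1, was at 8.71, 9.12 and 9.42 in the controls, 9.37, 9.43 and 9.64 with BMP4 and 9.14, 9.25 and 9.52 with GREM1, and all groups overlapped. The difference from control was 0.40 ± 0.18 with BMP4 and 0.22 ± 0.18 with GREM1 (adjusted p = 0.612 and 0.535). In each group replicate 1 was lowest and replicate 3 highest. The array reads the transcript, whereas the pathway is known to act on the stability of the protein.

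Axin2 is a negative regulator that is itself a widely used target gene of beta-catenin signalling. It was at 5.11, 5.07 and 4.84 in the controls, at 4.64, 4.84 and 4.51 with BMP4 and at 4.84 on all 3 GREM1 arrays, where 5 of the 9 arrays had the identical value. Its difference from control was -0.35 ± 0.11 with BMP4 (95% interval -0.59 to -0.11, adjusted p = 0.463) and -0.17 ± 0.11 with GREM1 (-0.41 to 0.07, adjusted p = 0.417). Between BMP4 and GREM1 it was -0.18 ± 0.11 (-0.42 to 0.06, adjusted p = 0.426). Axin1, the constitutive scaffold, was at 6.66, 6.97 and 6.95 in the controls, 6.80, 6.71 and 7.04 with BMP4 and 7.17, 6.89 and 6.93 with GREM1, with overlapping groups. None of these 3 genes passed in any comparison in limma, while Ctnnb1 and Axin2 had an unadjusted p under 0.05 for BMP4 against control.

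Lef1, a TCF/LEF factor that activates genes together with beta-catenin and is often induced by it, was at 6.79, 6.78 and 6.78 in the controls, at 6.28, 6.22 and 6.39 with BMP4 and at 7.43, 7.26 and 7.45 with GREM1. The groups did not overlap, with BMP4 lowest and GREM1 highest, the reverse of Sfrp2. Lef1 rose by 0.60 ± 0.084 with GREM1 (1.52-fold, adjusted p = 0.00641) and was lower with BMP4 than with GREM1 by 1.08 ± 0.084 (2.12-fold, adjusted p = 1.04e-04), and these calls held in every alternative run. Between BMP4 and control the difference was -0.48 ± 0.084 and missed the threshold (adjusted p = 0.0832).

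Tcf7l1, known mainly as a repressor of Wnt targets, was at 7.93, 7.74 and 8.0 in the controls, 7.87, 7.72 and 8.19 with BMP4 and 7.35, 7.57 and 7.69 with GREM1. All GREM1 arrays lay below the others, by 0.35 ± 0.14 on average below the controls (adjusted p = 0.192). Tcf7l2 was at 8.75, 8.60 and 8.84 in the controls, 8.31, 8.23 and 8.68 with BMP4 and 8.71, 8.65 and 8.76 with GREM1. Its BMP4 arrays overlapped both other groups through replicate 3, and its difference between BMP4 and GREM1 was -0.30 ± 0.12 (adjusted p = 0.214, or 0.0482 without BMP4 replicate 3, at -0.44). Of the 3 factors measured, Lef1 changed and the others did not pass.

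**Figure D3:**
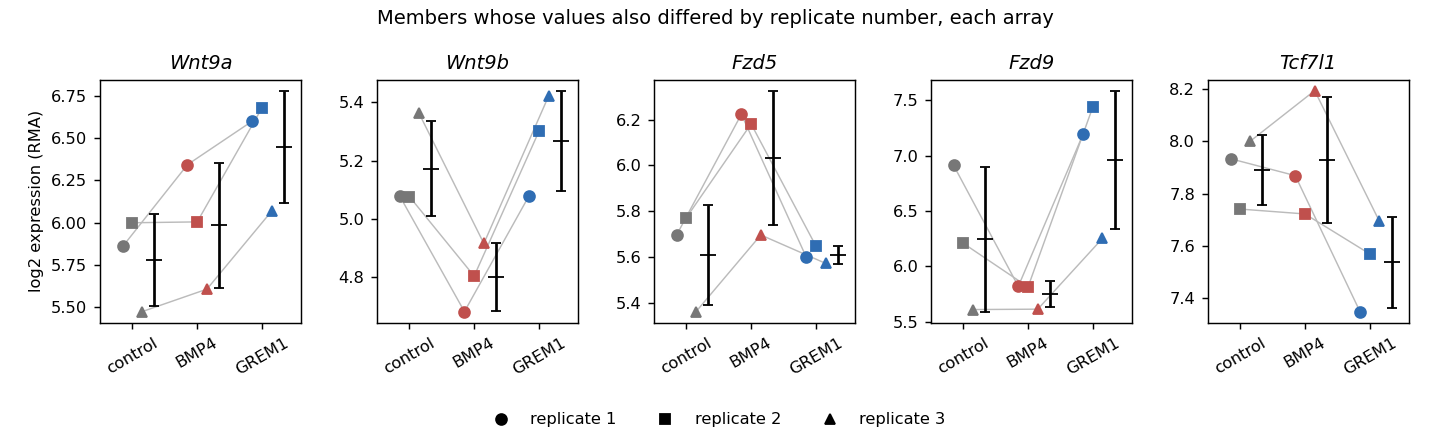
Log2 expression on each array (vertical axis, own scale per panel) of Wnt9a, Wnt9b, Fzd5, Fzd9 and Tcf7l1, chosen after their values were seen. Grey lines join arrays of equal replicate number, and bars give the mean and SD of 3 arrays. These members passed with the replicate number as a block but not without it, a choice that favours a shared order of replicates. All but Wnt9a did so only between BMP4 and GREM1, where the lowest correlation of equal numbers was 0.0885. Replicate 3 is the lowest array of every group for Wnt9a, Fzd5 and Fzd9 and the highest for Wnt9b and Tcf7l1. Given that choice, the order in these panels is not a separate result.

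Some members, like other tested genes, also varied with the replicate number of the labels. Replicate 3 was the lowest array of all 3 groups for 7 of the 41 tested members (Fzd2, Fzd5, Fzd9, Sfrp4, Wnt3a, Wnt4 and Wnt9a), as for 10.1% of all tested genes. It was the highest of all 3 groups for 5 members (Ctnnb1, Fzd3, Tcf7l1, Tcf7l2 and Wnt9b), as for 13.7% of all tested genes. Replicate 2 was the lowest of all 3 groups for 4 members (Dkk4, Lef1, Tcf7l2 and Wnt8a) and the highest for 0, as for 2.86% and 3.07% of all tested genes. Replicate 1 was the lowest for 1 member (Ctnnb1) and the highest for 2 (Sfrp4 and Wnt3a), as for 7.74% and 5.5% of all. Whether these shares differ from those of all genes was not tested. What the replicate number stands for is not given in the labels.

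For members that did not pass, the 95% interval gives the differences compatible with the spread between these arrays. It is taken gene by gene without adjustment, and it does not bound the effect of a treatment if that spread is technical. It lay inside -1 to 1 for 39 of 41 members for BMP4 against control, with Fzd9 and Sfrp2 outside. For GREM1 against control it did so for 35 of 37, with Fzd9 and Wnt9a outside, and for BMP4 against GREM1 for 35 of 36, with Fzd9 outside. Inside -0.5 to 0.5 lay 24, 30 and 23 of these members.

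Other genes of the pathway were read as 7 lists of ligand handling, inhibitors, R-spondin receptors, non-canonical receptors, the destruction complex, nuclear cofactors and target genes. Of 133 listed genes 130 were measured and 119 tested. With BMP4 1 rose and 0 fell, with GREM1 4 rose and 7 fell, and between BMP4 and GREM1 10 were higher and 6 lower with BMP4. Among all tested genes 0.117%, 4.28% and 6.45% passed in these comparisons, the shares against which the counts of each list below are to be read. The 1 gene that rose with BMP4 was Lgr6, a receptor for R-spondins, which strengthen Wnt signalling. It was at 7.60, 7.69 and 7.69 in the controls, 8.83, 8.61 and 9.05 with BMP4 and 5.72, 5.60 and 5.84 with GREM1, so that no group overlapped another. Lgr6 rose by 1.17 ± 0.12 with BMP4 (adjusted p = 0.00960) and fell by 1.94 ± 0.12 with GREM1 (adjusted p = 1.36e-04). The rise was lost when only those groups were fitted (adjusted p = 0.0585) and without control replicate 1 or 2 (adjusted p = 0.0598 and 0.0529). Of 6 tested R-spondins and Lgr receptors, Lgr6 alone passed, and it had the same order of groups as Sfrp2, Fzd6 and Wnt5a.

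Among 8 tested genes of Wnt secretion and extracellular handling, 1 fell with GREM1, and 2 were higher and 1 lower with BMP4 than with GREM1 (4.28% and 6.45% of all tested genes passed). Wls, the carrier that brings Wnt proteins to the cell surface, was at 8.84, 9.02 and 9.09 in the controls, 9.32, 9.39 and 9.60 with BMP4 and 8.53, 8.54 and 8.41 with GREM1. The groups of Wls did not overlap. It fell by 0.49 ± 0.10 with GREM1 (adjusted p = 0.0304) and was 0.95 ± 0.10 higher with BMP4 than with GREM1 (adjusted p = 6.36e-04). The glypicans, heparan sulfate proteoglycans that bind Wnt proteins, went in opposite directions between BMP4 and GREM1, with Gpc6 at 0.89 ± 0.17 and Gpc4 at -0.67 ± 0.078 (adjusted p = 0.0161 and 9.16e-04). The fall of Wls against control was lost without control replicate 2 or 3, BMP4 replicate 2 or any GREM1 array (adjusted p = 0.0692, 0.101, 0.0542, 0.0895, 0.0873 and 0.0800) and with arrays centred on their medians (0.0624). Gpc6 lost its call without GREM1 replicate 1 or 2 (0.0684 and 0.0695).

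Among 16 tested genes of the list of other secreted or membrane inhibitors, 1 rose and 2 fell with GREM1, and 3 were higher and 2 lower with BMP4 than with GREM1, against the same 4.28% and 6.45% of all tested genes. The largest difference was in Cthrc1, a secreted glycoprotein that binds Wnt and Frizzled proteins and is not a plain inhibitor. It was at 6.76, 6.60 and 7.28 in the controls, 7.91, 8.13 and 8.66 with BMP4 and 5.49, 5.53 and 5.77 with GREM1, with no overlap between groups. Cthrc1 fell by 1.28 ± 0.21 with GREM1 (adjusted p = 0.0134, and 0.0601 and 0.0600 without GREM1 replicates 1 and 2), and was 2.63 ± 0.21 higher with BMP4 than with GREM1 (adjusted p = 1.34e-04). Its difference of 1.35 ± 0.21 between BMP4 and control missed the threshold (adjusted p = 0.0594). In the contrast of BMP4 with GREM1, Tpbg, a membrane glycoprotein that can block LRP6, differed by 0.57, and Kremen1, a receptor for Dkk proteins, by 0.54, while Apcdd1, a membrane inhibitor, differed by -0.86 and Shisa2, which holds Frizzled proteins inside the cell, by -0.56. Tpbg fell by 0.52 and Shisa2 rose by 0.63 with GREM1 (adjusted p = 0.0235 and 0.0230). Both of these calls against control were lost without control replicate 1 or 3 or any GREM1 array (the highest adjusted p was 0.0945 for Tpbg and 0.0894 for Shisa2), and that of Tpbg also when only those groups were fitted (0.0538). In that contrast Kremen1 lost its call without BMP4 replicate 1 or 2 or GREM1 replicate 1 or 3, and Shisa2 without BMP4 replicate 3 or any GREM1 array (the highest adjusted p was 0.111 for Kremen1 and 0.0947 for Shisa2).

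In the non-canonical and planar polarity list (17 tested), Daam1, a formin that links Dishevelled to actin, rose by 0.45 ± 0.089 with GREM1 (adjusted p = 0.0245), a call lost without control replicate 1 or 3 or any GREM1 array (highest adjusted p = 0.0873) or when only those groups were fitted (0.0570). With BMP4 against GREM1, Daam1 was lower by -0.52 and the calcium-regulated factor Nfatc1 higher by 0.44 (adjusted p = 0.00821 and 0.0271), the latter lost without BMP4 replicate 1 or 3 or any GREM1 array (highest adjusted p = 0.0971) or when only those groups were fitted (0.0533). Of 26 tested genes of the destruction complex and Dishevelled, 0 passed in any comparison in limma. With GREM1 against control their median was 0.15 and 18 lay above 0, as did 8336 of all 17142 tested genes. At an unadjusted p under 0.05 in limma 6 were higher and 0 lower, beside 1576 higher and 1845 lower of all tested genes. Between BMP4 and GREM1 0 were higher and 6 lower with BMP4 at that level, beside 1728 higher and 1596 lower of all. Between BMP4 and control 0 differed, where 8.02% of all tested genes were at that level. Whether this list differs from all genes was not tested.

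The list of 26 nuclear cofactors and catenin-binding cadherins had 1 rise and 2 falls with GREM1, and 3 higher and 1 lower with BMP4 than with GREM1, where all tested genes had 4.28% and 6.45%. Tle1, a Groucho corepressor that TCF/LEF factors recruit, was at 6.67, 6.71 and 6.92 in the controls, 7.16, 7.01 and 7.09 with BMP4 and 5.93, 5.69 and 6.16 with GREM1. It fell by 0.85 ± 0.12 with GREM1 (adjusted p = 0.00805) and was 1.16 ± 0.12 higher with BMP4 than with GREM1 (adjusted p = 5.97e-04). Ctnnbip1, which blocks the binding of beta-catenin to TCF/LEF factors, fell by 0.79 ± 0.16 with GREM1 (adjusted p = 0.0267, lost without control replicate 1 or 3, BMP4 replicate 2 or any GREM1 array, with a highest adjusted p of 0.102) and was 0.90 higher with BMP4 than with GREM1 (adjusted p = 0.00983). Cadherins bind beta-catenin at the membrane: Cdh15, the muscle cadherin and a myogenic marker, rose by 0.91 ± 0.11 with GREM1 (adjusted p = 0.00348), and Cdh11 was 1.46 ± 0.25 higher with BMP4 than with GREM1 (adjusted p = 0.00944). With Cdh15, the myogenic markers Itga7 and Mymx rose by 1.00 and 1.02 with GREM1. These were the 3 of 12 myogenic markers that passed, and 2 of the 12 lay below 0, the lowest at -0.85.

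Of 25 tested Wnt target genes, 1 rose and 1 fell with GREM1, and 1 was lower with BMP4 than with GREM1, beside 4.28% and 6.45% of all tested genes. Ccn4, a matricellular protein induced by Wnt signals, rose by 0.43 ± 0.093 with GREM1 (adjusted p = 0.0353) and differed by -0.67 between BMP4 and GREM1 (adjusted p = 0.00279). The growth regulator Myc fell by 0.62 ± 0.10 with GREM1 (adjusted p = 0.0117). The rise of Ccn4 was lost without any 1 of the control arrays, BMP4 replicate 2 or any GREM1 array (highest adjusted p = 0.127), with arrays centred on their medians (0.0511) and when only those groups were fitted (0.0645). Cyclin D1, Ccnd1, was 0.24 ± 0.20 with BMP4 and 0.049 ± 0.20 with GREM1 against control (adjusted p = 0.788 and 0.929), the latter changing sign under other scaling. The median of the target genes was 0.0093 with BMP4 and -0.037 with GREM1 against control, close to 0 and to the medians of all genes.

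**Figure D4:**
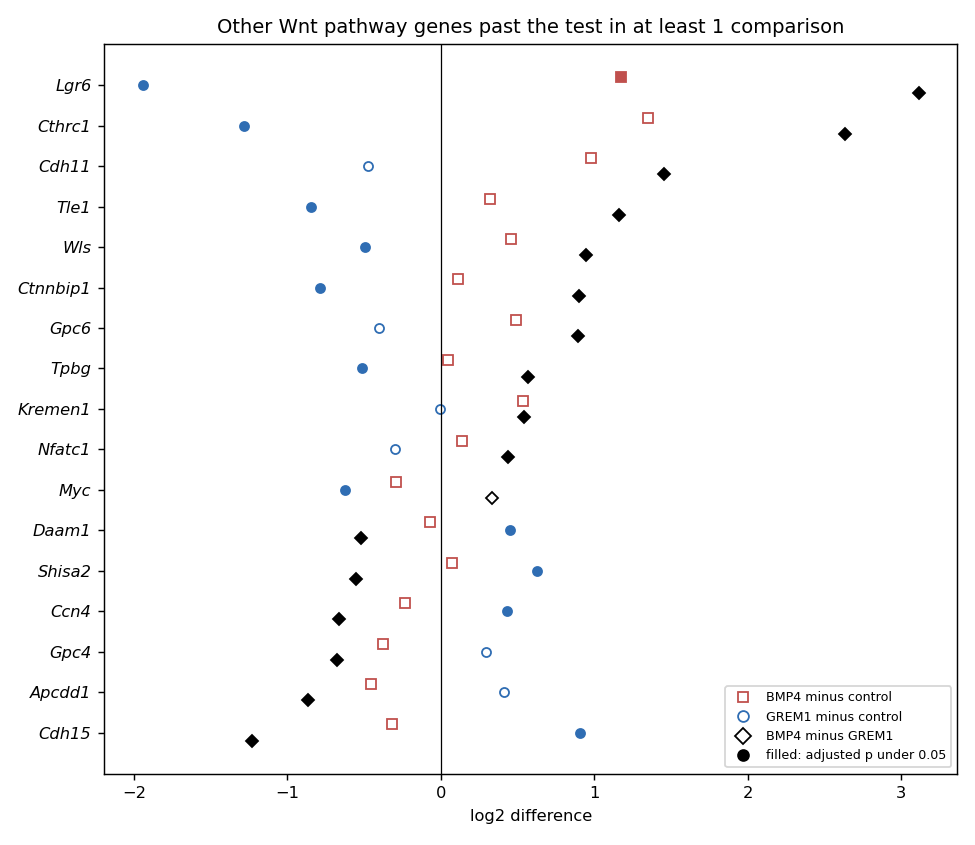
Log2 difference (horizontal axis) of the 17 other pathway genes that passed in at least 1 comparison, for BMP4 minus control (squares), GREM1 minus control (circles) and BMP4 minus GREM1 (diamonds); filled symbols have an adjusted p under 0.05. Lgr6 and Cthrc1 lie farthest to the right at 3.11 and 2.63 between BMP4 and GREM1, and Lgr6 lies farthest to the left with GREM1, at -1.94; among the diamonds Cdh15 is lowest at -1.23.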

How the data were processed

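Each of the 9 samples was measured on 1 Affymetrix array, and the deposited table holds log2 values. Per the submitters' processing notes, the authors computed them by RMA with Affymetrix Expression Console. This method removes background, equalises the arrays and combines probes, and can draw small differences together. For the array model and chip definition the sources used here give no name. Of 24973 probe sets, 24015 had 1 gene symbol, 0 had several and 958 had none here and were left out. Of the named probe sets 23922 were found by Entrez ID in the RefSeq gene table, and 0 symbols differed. For 4 genes with several probe sets, none of them a member, the probe set with the highest mean was taken. The number of arrays limits the precision, with a median SE of 0.115.

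Groups were compared in R 4.3.3 with limma 3.58.1 (lmFit, eBayes) on all 9 arrays, two-sided, with 6 residual and 3.47 prior degrees of freedom, after a test on simulated data. Values after subtraction of group means correlated between arrays of equal replicate number by 0.170 to 0.580 for BMP4 and control and 0.118 to 0.473 for GREM1 and control, so the block is given for these where it changes a call. Between BMP4 and GREM1 the lowest was 0.0885, below the level of 0.1 required, so the block is given there only as an alternative run. The pairing comes from the replicate numbers of the labels. No array pair had identical values.

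Members past the threshold in any comparison and the 5 of each role with the smallest p are given array by array, as are Lgr6, Wls, Cthrc1 and Tle1, which were chosen after their values were seen, and other pathway genes by at most 4 called genes per list and comparison, plus Ccnd1, Myc and Lgr6. Itga7, Mymx, Cspg4, Mcam, Abcc9 and Scx, as called markers, and Kremen1 between BMP4 and GREM1 fall outside that rule. The rule for the members uses gene symbols and no values, but the members and lists were chosen with earlier results of these data known. Alternatives were the block, other fits, scaling, filters, the mean of probe sets and leaving out each array.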

Additional observations from a re-analysis of the deposited data

How the results depend on the processing

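The count of 0 members for BMP4 against control was 2 with array weights (Fzd6 and Lef1) and 0 without any 1 array. For GREM1 against control the count of 4 was 2 when only those groups were fitted, 2 with no filter, and 1 to 4 when each array was left out in turn. It was 1 without control replicate 1, control replicate 3 or GREM1 replicate 1, 2 without BMP4 replicate 1 or 2 or GREM1 replicate 2, and 3 without control replicate 2 or GREM1 replicate 3. For BMP4 against GREM1 the count of 5 was 8 with array weights and 4 to 7 when each array was left out. With the replicate number as a block it was 10, adding Fzd5, Fzd9, Tcf7l1, Wnt9a and Wnt9b, and all 5 kept their calls. Of all tested genes 12.8% passed in that run, against 6.45% without the block. The lowest correlation of equal numbers there, 0.0885, was below the 0.1 required, so the 5 added members are not counted as results. For GREM1 against control the block gave 6, with all 4 kept, where 11.6% of all tested genes passed. For BMP4 against control it gave 0, where 0.379% passed. In the check of that pairing, 7 of the 9 arrays correlated best with their own number in both other groups, a hint from the data and not the design.

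Of 9 calls of members, 5 were kept under each of the alternatives run (Lef1 for GREM1 against control, and Sfrp2, Fzd6, Wnt5a and Lef1 between BMP4 and GREM1), although Wnt5a was not tested with the filter at the 50th percentile. Of 28 calls of other pathway genes 16 were kept, and 0 calls of either kind changed sign. The alternatives were followed for 96 values, those of the members and pathway genes named with their own values, and not for the other 20 tested members. Of the followed values that did not pass, 10 crossed the threshold under some alternative. Wnt7b (GREM1 against control) did so in 6 of 18 alternatives, and Wnt9b and Fzd9 (both BMP4 against GREM1) in 5 of 18 each. Of the values that did not pass, 10 others changed sign, each at most 0.096 in size. With array weights Wnt7b (BMP4 against control) was 0.015, Fzd3 (BMP4 against control) -0.055, Tcf7l2 (GREM1 against control) 0.026 and Ccnd1 (GREM1 against control) -0.051. A further quantile normalization gave -0.010 for Tcf7l1 (BMP4 against control), 0.034 for Fzd5 and -0.023 for Ccnd1 (both GREM1 against control), and centring gave 0.024 for Axin1 (BMP4 against control) and 0.022 for Fzd5. Without 1 array, the values against control ran from -0.19 to 0.0076 for Wnt7b, -0.055 to 0.13 for Fzd3, -0.11 to 0.062 for Axin1 and -0.096 to 0.14 for Tcf7l1 with BMP4. With GREM1 they ran from -0.13 to 0.078 for Fzd5, -0.089 to 0.028 for Tcf7l2 and -0.18 to 0.24 for Ccnd1. Between BMP4 and GREM1 they ran from -0.020 to 0.017 for Sfrp1, -0.12 to 0.15 for Dkk1 and -0.092 to 0.013 for Dkk4. The causes were not tested. Members near the filter level carry little signal over background, and no alternative adds arrays.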
